A study of Mus musculus with 18 samples.

Results

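The 10 genes described here encode histone methyltransferases that write the marks of active chromatin, and they were taken by symbol from the authors' deposited tables of nascent transcription in murine embryonic stem (ES) cells. All 10 were found among the 21859 protein-coding genes of the gene table. For 8 of them, a row with the same symbol was found among the 32253 promoter upstream transcripts (PROMPTs), which are short, unstable RNAs made antisense to a gene from the region just upstream of its start. Kmt2a and Kmt2b had no PROMPT row.

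The cells were of the E14 line with osTIR1 integrated in the genome. Untagged cells were compared with clone 1 and clone 2 of cells in which SPT16, a subunit of the histone chaperone FACT, carried a mini-AID and V5 tag, so that the auxin 3-IAA leads to degradation of the protein. Each of the 3 lines was treated for 24 h with ethanol (0.1%) or with 3-IAA (500 nM by the labels, whereas the study's methods give the same figure in µM), which made 6 groups of 3 libraries, 18 in all. RNA was labelled with 4-thiouridine for 5 min before extraction and the labelled fraction was sequenced (TT-seq), so that the reads come mainly from RNA made within minutes. The control groups carry osTIR1 as well, and each tagged line is 1 clone.

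The deposited tables hold 1 level per gene, the baseMean, which is the authors' mean, over the libraries they fitted together, of read counts divided by size factors. Control and SPT16-depleted libraries enter it alike. The levels below are therefore pooled over the conditions, no replicate error can be given, and no difference between conditions or between genes was tested. The remaining columns hold the authors' own comparison of the conditions and were not used here. Depth per library is not known from the tables used. The ES cell marker genes fixed for a check of the cell type mostly lay above percentile 75 of genes with reads (7 of 8, from 247.9 for Utf1 to 72140 for Tfcp2l1). None of 7 markers of the 3 germ layers (3.73 to 244.8), 4 fibroblast markers (9.17 to 951.6) or 2 trophectoderm markers (4.03 and 134.3) did.

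Histone methylation at 3 lysines accompanies transcription. Methylation of lysine 4 of histone H3 (H3K4) marks promoters and enhancers and is placed by the KMT2 and SETD1 enzymes within multisubunit complexes. Methylation of H3K36 is spread over transcribed genes and intergenic regions by SETD2 and the NSD enzymes, and methylation of H3K79 within gene bodies is placed by DOT1L, the one member without a SET domain. FACT handles nucleosomes in the path of RNA polymerase II, where SETD2 and DOT1L also act.

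PROMPTs arise in the DNA directly before a gene's start, and that DNA is shown for 4 members. Of these, Dot1l, Setd2 and Kmt2c had PROMPT levels of at least 10, whereas Kmt2d had the lowest PROMPT level of the 8. The sequences are from RefSeq on GRCm38.p6, 250 bases upstream of the annotated start, written 5′ to 3′ on the strand of the gene. Capitals mark matches on either strand to the GC box GGGCGG bound by SP1-type factors, and in Dot1l also to the ETS site CCGGAAG.
Dot1l, chr10:80754953-80755202, plus strand: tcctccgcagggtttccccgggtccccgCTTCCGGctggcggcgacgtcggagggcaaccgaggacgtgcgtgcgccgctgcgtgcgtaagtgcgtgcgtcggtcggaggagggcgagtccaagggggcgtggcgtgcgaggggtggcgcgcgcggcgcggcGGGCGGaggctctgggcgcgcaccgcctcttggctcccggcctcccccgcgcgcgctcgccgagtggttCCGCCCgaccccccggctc
Setd2, chr9:110532347-110532596, plus strand: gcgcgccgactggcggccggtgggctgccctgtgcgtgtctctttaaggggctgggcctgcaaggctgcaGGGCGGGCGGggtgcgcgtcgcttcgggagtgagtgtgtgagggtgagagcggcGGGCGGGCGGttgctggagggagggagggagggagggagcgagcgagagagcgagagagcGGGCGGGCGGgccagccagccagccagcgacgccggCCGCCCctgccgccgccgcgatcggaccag
Kmt2c, chr5:25498784-25499033, minus strand: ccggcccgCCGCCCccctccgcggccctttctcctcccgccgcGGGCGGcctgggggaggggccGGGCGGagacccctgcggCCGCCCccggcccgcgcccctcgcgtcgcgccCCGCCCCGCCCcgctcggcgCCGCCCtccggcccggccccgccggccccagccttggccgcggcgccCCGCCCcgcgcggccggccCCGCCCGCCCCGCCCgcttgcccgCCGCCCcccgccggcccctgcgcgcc
Kmt2d, chr15:98871206-98871455, minus strand: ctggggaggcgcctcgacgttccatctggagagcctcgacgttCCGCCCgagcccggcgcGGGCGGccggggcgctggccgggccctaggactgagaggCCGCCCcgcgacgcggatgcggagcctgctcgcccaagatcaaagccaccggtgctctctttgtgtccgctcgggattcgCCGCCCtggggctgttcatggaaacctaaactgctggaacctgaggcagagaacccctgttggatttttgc

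Promoter windows of 300 bases, of which 50 lie after the start, were matched for 6 members (Kmt2a, Kmt2c, Kmt2d, Setd1a, Setd2 and Dot1l). Kmt2b, Setd1b, Nsd1 and Nsd2 were not matched. All 6 windows were richer in G and C than the median promoter, at 62.7% for Kmt2d, 73.7% for Setd1a, 75.7% for Kmt2a, 76.3% for Dot1l, 77.3% for Setd2 and 88.0% for Kmt2c, against 52.7% over 32851 promoter windows. Kmt2c held 56 CpG dinucleotides, more than 99.8% of all windows, while Dot1l held 49, Setd2 38, Kmt2a 36, Setd1a 35 and Kmt2d 27, against a median of 7. The GC box was found in 5 of the 6 windows, with 12 matches in Kmt2c, 7 in Setd2, 5 in Kmt2a, 4 in Kmt2d and 2 in Dot1l, some of which overlap. Of all windows, 35.7% held at least 1. The window of Dot1l alone among the 6 held the ETS site (8.86% of all windows) and the YY1 site AAGATGGCG (1.40% of all windows). A TATA box (TATAAA, 13.6% of all windows), a CCAAT box (CCAAT, 37.4%), an E-box (CACGTG, 7.15%), a cyclic AMP response element (TGACGTCA, 1.79%) and an NRF1 site (4.60%) matched in none of the 6. Each motif was searched on both strands over all 300 bases, and the YY1 match lies in the bases after the start that are not printed. Dot1l and Setd1a had fewer GC boxes than Kmt2d and higher PROMPT levels, whereas Kmt2c and Setd2 had more GC boxes and also higher PROMPT levels. A relation of GC boxes to PROMPT level was not tested. The window of Setd1a, which held no GC box, starts inside the gene as the other annotation used here (Gencode) draws it, so its bases are not printed.

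The levels of the 10 genes spanned 22.8 times, from 2077 for Setd1a to 47296 for Nsd1 (authors' baseMean). All 10 lay above the median of the 20157 genes with reads, which was 421.4, and 8 lay above percentile 75, which was 2900.2. Their median was 7532, or 17.9 times that of all genes. Together they took 0.249% of the summed baseMean of all genes, although they make up 0.0496% of the genes with reads. They are also long genes, and a longer gene collects more reads at the same rate of transcription. The median of the members was 58754 bp in genomic span and 14369 bp in exons, against 19572 bp and 3706 bp for all genes with reads, and each member was above both medians. The baseMean values are therefore given with their ranks as a description, and comparisons of level between genes are made per kb of exon or of span. The option for introns was not given in the sources used here, so both lengths are shown.

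**Figure D1:**
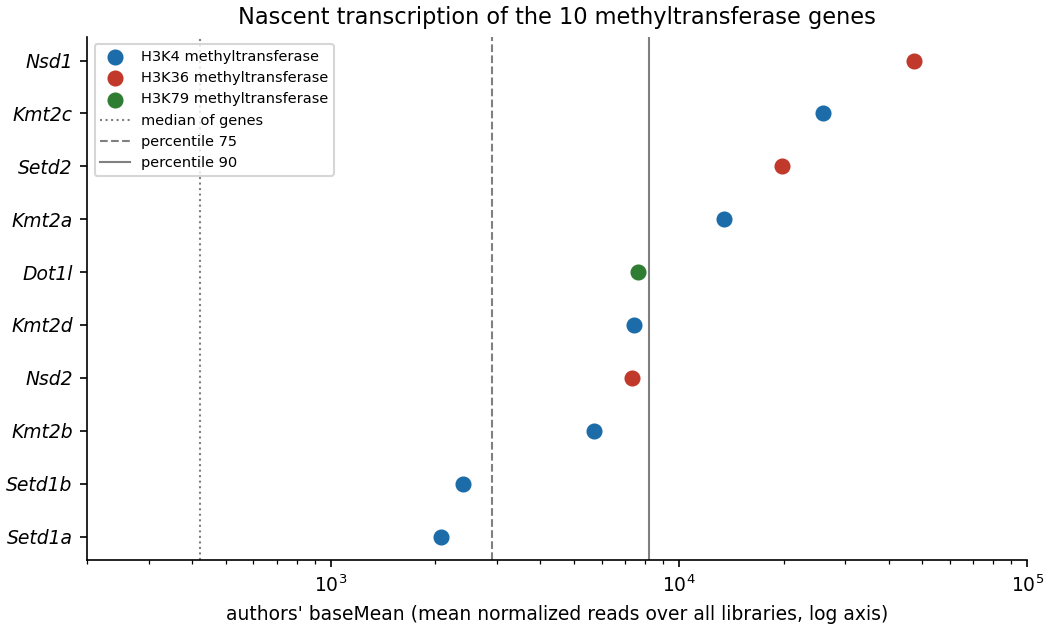
Level of each of the 10 genes (points, authors' baseMean on a log axis, 1 pooled value over all libraries, coloured by the histone residue the enzyme methylates), with lines at the median and at the percentiles 75 and 90 of genes with reads. Nsd1, Kmt2c, Setd2 and Kmt2a lie past percentile 90, and Setd1a and Setd1b lie below percentile 75.

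Among the 6 H3K4 methyltransferases, levels ran from 2077 to 25940 with a median of 6562 (authors' baseMean). Kmt2c, on chromosome 5 of GRCm38 from 25271798 to 25498783, encodes an enzyme that monomethylates H3K4 at enhancers. Its baseMean of 25940 ranked 224 among genes with reads. It is the longest member, with 226986 bp of which 8.94% is exon, and its level was 1278 per kb of exon (percentile 87.5 of genes with reads) but 114.3 per kb of span (percentile 74.5). Kmt2d, on chromosome 15 from 98831669 to 98871204, encodes the related enzyme with the same activity at enhancers. Its baseMean was 7438, with 373.2 per kb of exon (percentile 65.3) and 188.1 per kb of span (percentile 85.6). Both have about 20 kb of exon, 20291 bp in Kmt2c and 19931 bp in Kmt2d, while their spans differ 5.74 times. Kmt2c was thus 3.43 times higher than Kmt2d per kb of exon and 0.607 times its level per kb of span, so that the order of the pair depends on the length used.

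The order of Kmt2a and Kmt2b turned in the same way. Kmt2a, on chromosome 9 from 44803355 to 44881296, encodes the methyltransferase best known for maintaining Hox gene expression and for its fusions in leukaemia. It had a baseMean of 13450, a level of 806.8 per kb of exon (percentile 79.5) and one of 172.6 per kb of span (percentile 83.7). Kmt2b, on chromosome 7 from 30568858 to 30588726, encodes the enzyme that trimethylates H3K4 at bivalent promoters in ES cells. It is the shortest member in span, at 19869 bp, with a baseMean of 5687, a level of 592.6 per kb of exon (percentile 73.6) and one of 286.2 per kb of span (percentile 92.7). Kmt2a was 1.36 times higher than Kmt2b per kb of exon, and Kmt2b was 1.66 times higher than Kmt2a per kb of span.

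Setd1a and Setd1b, whose products place most H3K4 trimethylation at promoters, had the lowest levels of the 10 by baseMean, per kb of exon, per kb of span and per kb of coding length. Setd1a, on chromosome 7 from 127776670 to 127800122, had a baseMean of 2077, a level of 305.6 per kb of exon (percentile 62.0) and one of 88.5 per kb of span (percentile 69.0). In the annotation 51.8% of its exon bases are shared with exons of the protein-coding gene Gm49388 on the same strand, which was itself listed at 23.4, and reads in the shared bases may be missing from its level. Setd1b, on chromosome 5 from 123142193 to 123168629, had a baseMean of 2395, a level of 198.4 per kb of exon (percentile 55.6) and one of 90.6 per kb of span (percentile 69.5). The levels of the pair differed by 1.02 times per kb of span, with Setd1b higher, and by 1.54 times per kb of exon, with Setd1a higher.

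The 3 H3K36 methyltransferases included the highest member. Nsd1, on chromosome 13 from 55209782 to 55318325, encodes an enzyme that dimethylates H3K36 in intergenic regions. It ranked 41 among the 20157 genes with reads, at a baseMean of 47296, which alone was 0.0846% of the sum over all genes. Per kb of exon its level was 2705 (percentile 96.3) and per kb of span 435.7 (percentile 96.4), the highest of the 10 on both. Nsd2, on chromosome 5 from 33820725 to 33897975, encodes the related H3K36 dimethyltransferase. Its baseMean was 7332, its level 436.3 per kb of exon (percentile 68.1) and 94.9 per kb of span (percentile 70.5). Nsd1 was higher than Nsd2 on every scale, by 6.20 times per kb of exon, 4.59 times per kb of span and 3.27 times per kb of coding length. It was the one related pair among KMT2A and KMT2B, KMT2C and KMT2D, SETD1A and SETD1B, and NSD1 and NSD2 in which the first gene was higher per kb of both exon and span. The annotation places Nelfa on the strand opposite to Nsd2, with 60 shared exon bases, and reads were counted by strand.

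Setd2, on chromosome 9 from 110532597 to 110618633, encodes the enzyme that trimethylates H3K36 behind elongating RNA polymerase II. It was the second highest member per kb of exon, with a baseMean of 19739, a level of 1835 per kb of exon (percentile 92.5) and one of 229.4 per kb of span (percentile 89.4). Dot1l, on chromosome 10 from 80755206 to 80795461, encodes the H3K79 methyltransferase. It lay above percentile 75 on all 3 of these scales, with a baseMean of 7626, a level of 876.1 per kb of exon (percentile 80.9) and one of 189.4 per kb of span (percentile 85.7).

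Per kb of exon, 5 of the 10 lay above percentile 75 (Nsd1, Setd2, Kmt2c, Dot1l and Kmt2a), and per kb of span 6 did (Nsd1, Kmt2b, Setd2, Dot1l, Kmt2d and Kmt2a). Nsd1, Setd2, Dot1l and Kmt2a did so by both lengths. Setd1a, Setd1b and Nsd2 did so by neither. All 10 were above the median gene by both when ranked among genes with reads. Ranked per kb of exon among genes with a baseMean of 10 or more, Setd1b lay at percentile 42.1 and Setd1a at 50.4. The levels of the members spanned 13.6 times per kb of exon and 4.92 times per kb of span, less than the 22.8 times of the baseMean.

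**Figure D2:**
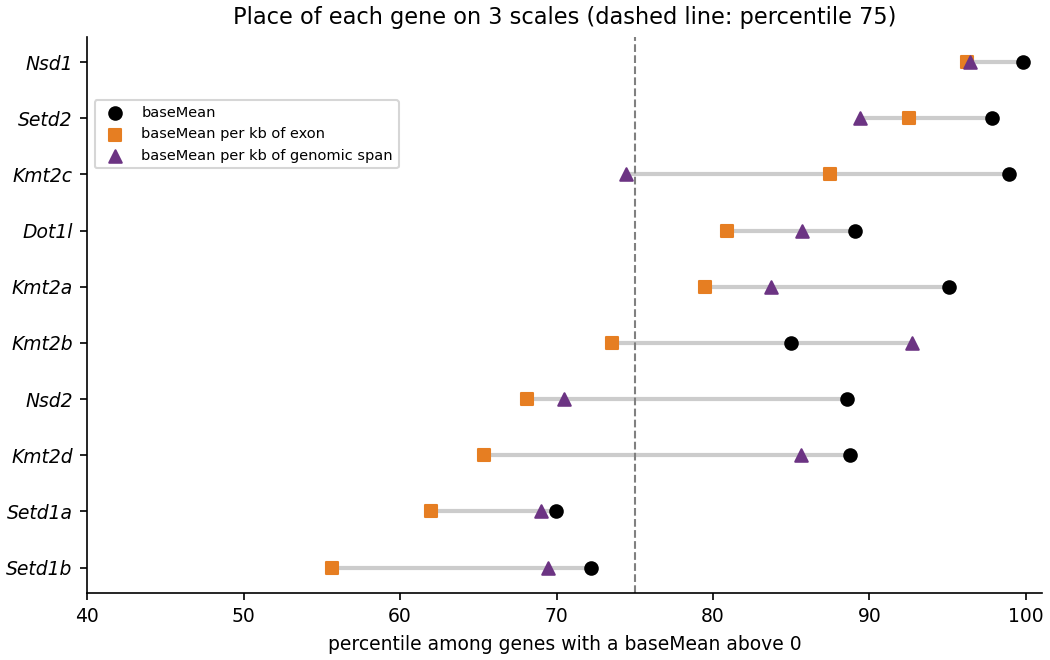
Percentile of each of the 10 genes among genes with reads, by baseMean (circles), baseMean per kb of exon (squares) and baseMean per kb of genomic span (triangles), each 1 pooled value. Nsd1 stays above percentile 96 on all 3 scales, while Kmt2c falls from 98.9 by baseMean to 74.5 per kb of span and Kmt2b rises from 73.6 per kb of exon to 92.7 per kb of span.

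The PROMPT table was scaled apart from the gene table: its smallest value above 0 was 0.0266, shared by 452 PROMPTs, and that of the gene table was 0.0216, shared by 102 genes. A PROMPT level set against a gene level therefore carries an unknown factor common to all pairs. Of all PROMPTs, 23257 had reads, with a median baseMean of 0.815, and 3712 reached 10 (16.0% of those with reads). The 8 members ranged from 0.544 to 17.7 with a median of 8.88. Of these, 6 lay above percentile 75, which was 4.67, and 4 reached 10. PROMPTs of genes at the members' own levels, also those at 0, reached 10 more often than PROMPTs as a whole. The share was 25.4% for a gene baseMean from 1000 to 5000, 29.6% from 5000 to 10000 and 37.2% from 10000 upwards.

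The highest PROMPT levels were those of Dot1l, at 17.7 (percentile 89.5 of PROMPTs with reads), and Setd1a, at 17.5 (percentile 89.4). Setd2 followed at 11.7 (percentile 85.5), Kmt2c at 10.1 (percentile 84.2), Setd1b at 7.63 (percentile 81.0) and Nsd1 at 7.14 (percentile 80.2). Nsd2 and Kmt2d stood apart from the other 6, at 0.596 (percentile 44.6) and 0.544 (percentile 43.0). If the smallest value, 0.0266, is that of a single read, these rest on at most 22 and 20 reads in all, whereas that of Dot1l rests on at most 663 and that of Nsd1, the lowest of the other 6, on at most 267. The spread between libraries is not known for any of them.

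The order of PROMPT levels was not that of the genes. Across the 13699 pairs with reads in both tables, Spearman's rho between gene and PROMPT baseMean was 0.409, a description over genes that share the same libraries. Among the 1338 genes with a PROMPT row, also one at 0, and a baseMean of 10000 or more, the median PROMPT level was 4.23, and Setd2, Kmt2c and Nsd1 lay at percentiles 65.1, 63.0 and 57.6 of these. Among 1505 genes with a baseMean from 5000 to 10000, the median was 3.25, and Dot1l lay at percentile 79.3 while Nsd2 and Kmt2d lay at 20.6 and 19.4. Dot1l, Kmt2d and Nsd2 had nearly the same gene baseMean, between 7332 and 7626, and PROMPT levels that differed 32.5 times between Dot1l and Kmt2d. Per kb of exon, however, the gene level of Dot1l was 876.1 against 373.2 for Kmt2d and 436.3 for Nsd2. Per kb of span the gene levels of Dot1l and Kmt2d were close, at 189.4 and 188.1, and that of Nsd2 was 94.9. Among 3746 genes with a baseMean from 1000 to 5000, with a median of 2.95, Setd1a lay at percentile 84.3 and Setd1b at 69.0.

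Relative to the gene, the PROMPT level was highest for Setd1a, at 8.42 per 1000 of the gene's baseMean, followed by Setd1b at 3.18, Dot1l at 2.32, Setd2 at 0.592, Kmt2c at 0.391, Nsd1 at 0.151, Nsd2 at 0.0813 and Kmt2d at 0.0732. The median over all pairs was 3.40, and 7 of the 8 lay below it. Pairs with a weakly transcribed gene have high ratios, and among the 9664 pairs whose gene reached a baseMean of 100 the median was 1.39 and 5 of the 8 lay below it, with Setd1b and Dot1l now above. The pair of SETD1 genes, lowest of the 10 in gene level, had the highest PROMPT levels relative to the gene. This ratio rises by construction as the gene's baseMean falls, and a longer gene has a higher baseMean at the same rate of transcription. With the gene's level per kb of exon instead, 5 of the 8 lay below the median pair. Setd1b and Nsd1 had similar PROMPT levels, 7.63 and 7.14, with gene baseMean values of 2395 and 47296. Their gene levels were 90.6 and 435.7 per kb of span, and 198.4 and 2705 per kb of exon. The part that the exons shared with Gm49388 have in the ratio of Setd1a was not tested.

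**Figure D3:**
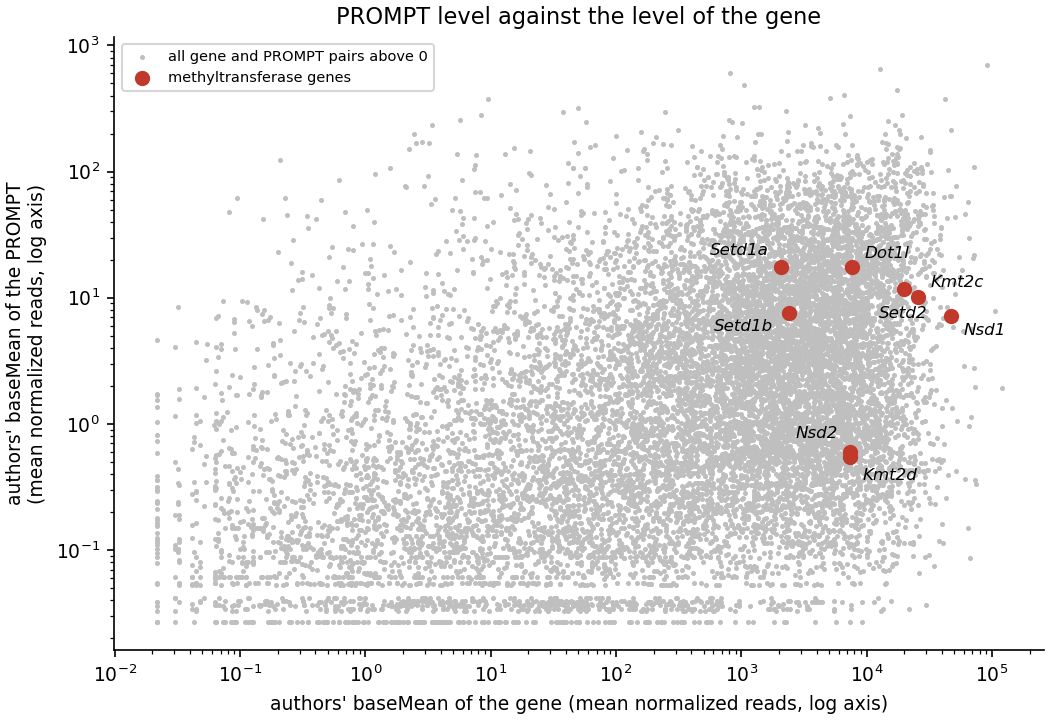
PROMPT baseMean against gene baseMean, both on log axes, for the 13699 pairs with reads in both tables (grey) and for the 8 members with a PROMPT row (red, labelled), each 1 pooled value. Kmt2d lies 32.5 times below Dot1l at nearly the same gene baseMean, with Nsd2 beside it, and Nsd1 has the highest gene baseMean with a PROMPT of 7.14.

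The annotation upstream of the members differed. In the 1000 bp before the start, a transcript of the protein-coding gene Zbtb32 on the same strand reaches into the window of Kmt2b. That window also holds the microRNA Mir3569 on the opposite strand. By the description deposited with the tables, PROMPTs near other protein-coding transcripts (1 kb) were left out. In the annotation used here (Gencode vM21), Orai3 lies 520 bp beyond the window of Setd1a, which has a row. Why Kmt2a and Kmt2b have none was not tested. The window of Kmt2a, from 44881297 to 44882296 on chromosome 9, holds the antisense transcript AC061963.1, and the nearest other protein-coding transcript lies 30921 bp beyond it. Long non-coding RNAs on the opposite strand are annotated in the windows of Kmt2c (4831440E17Rik) and Setd1b (AI480526 and Gm26745). The window of Setd1b also holds the long non-coding RNA 4932422M17Rik on the same strand. No other transcript is annotated in the windows of Kmt2d, Setd1a, Setd2, Dot1l, Nsd1 and Nsd2, which include both the highest and the lowest PROMPT levels of the members. A relation of the upstream annotation to PROMPT level was not tested.

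The enzymes act with partner subunits, and lists of these were compared on the scale per kb of exon, on which the 10 members had a median of 699.7 (5.81 times that of all genes, and percentile 76.5 as the median of the members' percentiles). The 4 core subunits shared by all KMT2 and SETD1 complexes (Wdr5, Rbbp5, Ash2l and Dpy30) ran from 1973 for Rbbp5 to 5512 for Dpy30 per kb of exon, all above the 6 H3K4 methyltransferases, of which Kmt2c was highest at 1278, and all 4 lay above percentile 75. Per kb of span they ran from 258.1 for Dpy30 to 651.8 for Ash2l, and Kmt2b at 286.2 lay within that range. Of 4 subunits of SET1 complexes, 2 lay above percentile 75 per kb of exon. Wdr82, which links the complex to RNA polymerase II, was highest at 1979, and Cxxc1, which binds unmethylated CpG, was lowest at 170.4. Of 3 partners of KMT2A and KMT2B, Psip1, which binds H3K36-methylated nucleosomes, was highest at 1315 and Men1, which encodes menin, lowest at 156.0. Of 4 partners of KMT2C and KMT2D, Kdm6a, an H3K27 demethylase, was highest at 1986. Per kb of span Paxip1 was the highest of them at 313.4, and Kdm6a lay at 141.8. Pagr1a of that list was listed at 0. Overlap with other genes was checked for the members only, so this 0 may not mean that Pagr1a was not transcribed. Per kb of span the median percentile was 95.0 for the core subunits and 85.6 for the SET1 subunits. It was 88.4 for the KMT2A and KMT2B partners. For the KMT2C and KMT2D partners it was 80.6, below the 84.7 of the members, whereas per kb of exon it was 89.5 against 76.5.

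The 6 genes listed as DOT1L partners, some of which belong to the super elongation complex, had a median of 1573 per kb of exon. Of these, 5 lay above percentile 75, with Aff1 of the super elongation complex highest at 7536 and Mllt3 lowest at 465.8. Of 3 factors linked to SETD2, Hnrnpl, which encodes a splicing factor that binds SETD2, was highest at 1798 and Iws1, an elongation factor, lowest at 893.1, and all 3 lay above percentile 75. The 8 readers of H3K36 methylation had a median of 844.6 with 5 above percentile 75, from 177.0 for Dnmt3a, a de novo DNA methyltransferase, to 1315 for Psip1. Per kb of span the median percentile was 92.4 for the DOT1L list, 91.9 for the SETD2 list and 88.3 for the readers. The genes named as highest or lowest of a list are those per kb of exon, and some differ per kb of span.

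Of 8 related methyltransferases outside the members, 6 lay above percentile 75 per kb of exon, with Smyd3 highest at 3914 and Setd7 lowest at 90.4. Per kb of span 3 did, with Smyd3 at percentile 63.0. Nsd3, the third NSD gene, had 673.0 per kb of exon, between Nsd2 at 436.3 and Nsd1 at 2705, while per kb of span Nsd3 at 94.1 and Nsd2 at 94.9 were close. The 10 demethylases of H3K4 and H3K36, which remove the marks, had a median of 1211 per kb of exon with 9 above percentile 75, from 556.2 for Kdm1b to 3759 for Kdm4c. Per kb of span 8 lay above percentile 75, with Kdm4c at percentile 77.9. The median of the demethylases' percentiles per kb of span was 83.2, against 84.7 for the members. The 10 methyltransferases of repressive marks had a median of 622.6 from 343.7 for Suv39h1 to 2261 for Ehmt1, and 4 lay above percentile 75 per kb of exon but 8 per kb of span. Of the Paf1 elongation complex, which is needed for H3K4 and H3K79 methylation, 5 of 6 listed genes were found. Skic8 was not found under that symbol, and other symbols were not searched. The 5 had a median of 975.4 per kb of exon with 4 above percentile 75, from Paf1 at 382.2 to Rtf1 at 1592. Per kb of span all 5 lay above percentile 75. These are counts and medians of pooled values, and no list was tested against the members.

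**Figure D4:**
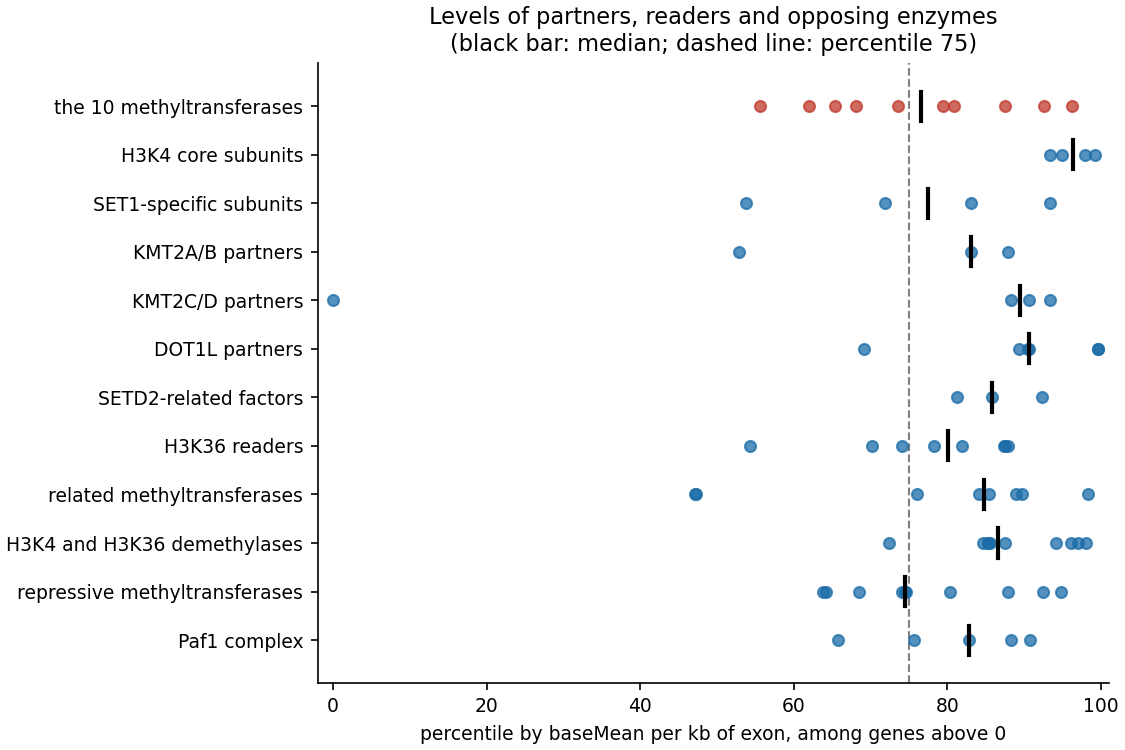
Percentile of each gene among genes with reads by baseMean per kb of exon (points, 1 pooled value each), for the 10 methyltransferases (red) and for 11 lists of partner, reader, related and opposing genes (blue), with the median of each list as a black bar. The 4 core subunits lie above percentile 93, the 10 methyltransferases run from 55.6 to 96.3, and the point at 0 is Pagr1a.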

How the data were processed

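Per the study's methods, the authors filtered reads by Trim Galore, mapped uniquely to mm10 by STAR, and counted by strand with featureCounts. Genes and PROMPTs were defined from Gencode vM25, per the description deposited with the tables. DESeq2 was then run by the authors with no filter on expression. Versions are not given in the sources used here. The deposited signal, the baseMean, is the authors' pooled mean of size-factor-scaled counts, scaled separately in each table. The deposited columns of log2 fold change, standard error and raw and adjusted p-value hold the authors' own comparison and were not used. Enhancer and distal transcripts carry no gene symbols and were not used.

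Ranks and percentiles (the share of the other rows with a lower value, tested on simulated data) were computed among rows above 0. Lengths came from Gencode vM21 on GRCm38, the build of the files, which matched 21817 of 21859 genes. Exon length is the union of a gene's exons. All 10 members were named, and from each list the genes highest and lowest per kb of exon. Nsd3, Utf1 and Tfcp2l1, Ash2l, Paxip1, Gm49388 and the genes of the upstream windows were named with their values in view. The members and lists were chosen with earlier results of these data known. Alternatives were other sets of ranked rows, lengths and limits. No table used held values per library, so no test was made. Python 3.11.15, numpy 2.4.6, pandas 2.3.3 and matplotlib 3.10.9 were used.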

Additional observations from a re-analysis of the deposited data

How the results depend on the processing

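No paired analysis was possible because the values are pooled over libraries and come from no test, and for the same reason no library could be left out. The number of members above percentile 75 by baseMean, 8, was also 8 when genes were ranked from a baseMean of 1 or 10 upwards and when all rows were ranked. Above percentile 90 it was 4, and above percentile 50 it was 10. Per kb of exon 5 members lay above percentile 75, per kb of span 6, and per kb of exon among genes with a baseMean of 10 or more 4, but per kb of coding length 2 did (Nsd1 and Setd2). Per kb of exon, 2 lay above percentile 90 and 10 above percentile 50 of genes with reads. Among genes with a baseMean of 10 or more, Setd1b fell to percentile 42.1 on that scale. Of the member PROMPTs, 6 lay above percentile 75 and 0 above percentile 90 of PROMPTs with reads, and 2 (Dot1l and Setd1a) above percentile 75 of those with a baseMean of 1 or more, a set without the weakest rows. Relative to the gene, 7 of 8 PROMPTs lay below the median pair, and 5 did with the gene's level per kb of exon or among genes with a baseMean of 100 or more. Of 92 percentiles of single members recomputed under the alternatives, 77 stayed on the same side of the limit and 15 did not. The limit was percentile 75, or 50 for PROMPTs relative to the gene. The spread between libraries is unknown for every value, and the PROMPTs of Nsd2 and Kmt2d rest on at most 22 and 20 reads if the smallest value in the table is that of a single read.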
